A study of Rattus norvegicus with 32 samples.

Results

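The genes that carry a cell through mitosis were followed in C6 cells, a rat glioma line, after exposure to Angiotensin II (Ang II), the peptide hormone of the renin-angiotensin system. The list held 45 gene symbols, covering mitotic cyclins and kinases, spindle checkpoint proteins, kinesins, kinetochore proteins, chromosomal passengers and condensins, and a gene was taken when the array annotation carried exactly that symbol. Of these, 42 were among the 26583 gene symbols of the array, while Cdk1, Mki67 and Ncapg were not found under those names. All cells had been grown to confluence in serum-containing medium, and they formed 4 groups at 3 h and another 4 at 6 h: Control, with neither Ang II nor antagonist; Ang II at 100 nM; Ang II+Los, in which 10 µM Losartan, an AT1 receptor antagonist, preceded 100 nM Ang II; and Ang II+PD123319, in which 10 µM PD123319, an AT2 receptor antagonist, preceded 100 nM Ang II. No group received an antagonist without Ang II. Each group held 4 replicates, each measured on a single-colour Agilent array, and all arrays with the same replicate number at a given time lay on the same slide. The design asked how Ang II changed expression (Ang II x Control) and how blocking either receptor altered that state, by setting Ang II+Los (the Losartan comparison) or Ang II+PD123319 (the PD123319 comparison) beside Ang II alone.

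Mitosis depends on cyclin B bound to its partner kinase, together with the Polo and Aurora kinases, which drive entry and spindle assembly. Kinetochores tie chromosomes to microtubules, the spindle checkpoint holds back anaphase until every chromosome is attached, condensins compact the chromosomes, and kinesins move them and organise the midzone where the cell divides. Most of these genes are transcribed in G2 and M phase, so in a bulk culture their RNA level follows how many cells are in those phases as well as how much each cell makes, and these arrays cannot tell a change in the share of dividing cells from a change per cell.

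Among marker genes, 5 of 6 glial and glioma genes (S100b, Vim, Nes, Cspg4 and Cnp) were well above background on all 16 arrays of each time, whereas the astrocyte gene Gfap was not kept at either time. Of 5 macrophage and microglia genes, Aif1, Cd68 and Itgam were also above background on all 16 arrays of each time and Csf1r on those of 6 h, while the pan-leukocyte gene Ptprc was kept at neither. The same held for the neuronal genes Snap25 and Tubb3 at both times, of 3 on the array, and of 4 endothelial genes for Cdh5 at 6 h. Between 55.9% and 64.7% of the spots of an array were well above background at 3 h and between 64.2% and 79.8% at 6 h. A member was tested at a time when it had a probe that rose well above background throughout at least 1 group (4 of 4 arrays), which left 38 of the 42 members at 3 h and all 42 at 6 h. The members not kept at 3 h were Cdc25c, Cenpe, Kif4 and Smc2. Values are given as normalized log2 signal, for which a difference of 1 is a doubling, and they are compared within a gene and within a time only.

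The probes behind the members that carried the clearest differences are shown because 2 of these genes, Nek2 and Kif2c, were read by pairs of probes that largely overlap and so do not count as separate measurements (at 3 h probe 1 of Nek2 was not kept, and probe 2 alone gave its value). The Nek2 probes share 44 bases and the Kif2c probes share 52 (capitals). On the rat build rn4, as given in the array files, the Nek2 probes lie at chr13:107907177-107907236 and chr13:107907193-107907252 on the plus strand, those of Kif2c at chr5:137474195-137474254 and chr5:137474203-137474262 on the minus strand, that of Mad2l1 at chr4:96384801-96384860 (plus), that of Aurkb at chr10:55801393-55801534 (plus) and that of Ccnb1 at chr2:31574809-31575048 (minus). The last 2 of these probes have 60 bases placed over 142 and 240 bases of genome.
Nek2 probe 1: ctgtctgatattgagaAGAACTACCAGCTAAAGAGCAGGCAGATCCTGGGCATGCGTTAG
Nek2 probe 2: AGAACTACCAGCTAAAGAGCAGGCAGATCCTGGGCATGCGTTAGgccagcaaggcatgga
Kif2c probe 1: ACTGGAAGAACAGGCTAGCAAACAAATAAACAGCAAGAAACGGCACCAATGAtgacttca
Kif2c probe 2: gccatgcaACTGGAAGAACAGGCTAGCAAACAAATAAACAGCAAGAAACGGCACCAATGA
Mad2l1 probe: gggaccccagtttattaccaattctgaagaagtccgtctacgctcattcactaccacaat
Aurkb probe: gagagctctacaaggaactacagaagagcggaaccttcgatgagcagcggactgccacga
Ccnb1 probe: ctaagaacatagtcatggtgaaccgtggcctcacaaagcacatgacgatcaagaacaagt

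The largest differences in mitotic gene levels were found among the replicates and not among the treatments. At 3 h, the 4 slides of replicates were separated by a median of 2.92 on the log2 scale per member (7.57-fold), after averaging the 4 groups of each slide, while the median over all 13628 genes tested was 0.66 (1.59-fold). Relative to the mean of the 4 slides, the median member stood at 1.23 in replicate 1, 0.18 in replicate 2, -1.71 in replicate 3 and 0.24 in replicate 4. Replicate 3 was the lowest for 38 of 38 members (30.7% of all genes) and replicate 1 the highest for 37 of 38 (31.4% of all genes). With limma, the difference among slides had an adjusted p below 0.05 for 38 of 38 members, against 63.1% of all genes, and the slide range exceeded 1 for 36 members, against 28.0% of all genes.

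Ccnb2, a B-type cyclin, had the widest slide range at 3 h, 4.10 (17.1-fold), and Bub3, a checkpoint protein that also works outside the checkpoint, the narrowest, 0.77. Ccnb1, the main mitotic cyclin, stood at 1.41, 0.47, -2.05 and 0.17 in replicates 1 to 4, a 10.9-fold range. Plk1, the Polo kinase, spanned 3.34, Aurkb, the kinase of the chromosomal passenger complex, 3.31, and Top2a, the topoisomerase that untangles sister chromatids, 2.77. Foxm1, a transcription factor of G2/M genes and no member of the list, stood at 1.17, 0.14, -1.64 and 0.33, the same slide order as the median member. The median member was highest on the slide of replicate 1 and lowest on that of replicate 3 in each of the 4 groups taken alone, with a range of 3.01 in the Control arrays and between 2.84 and 2.87 in the treated groups.

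**Figure D1:**
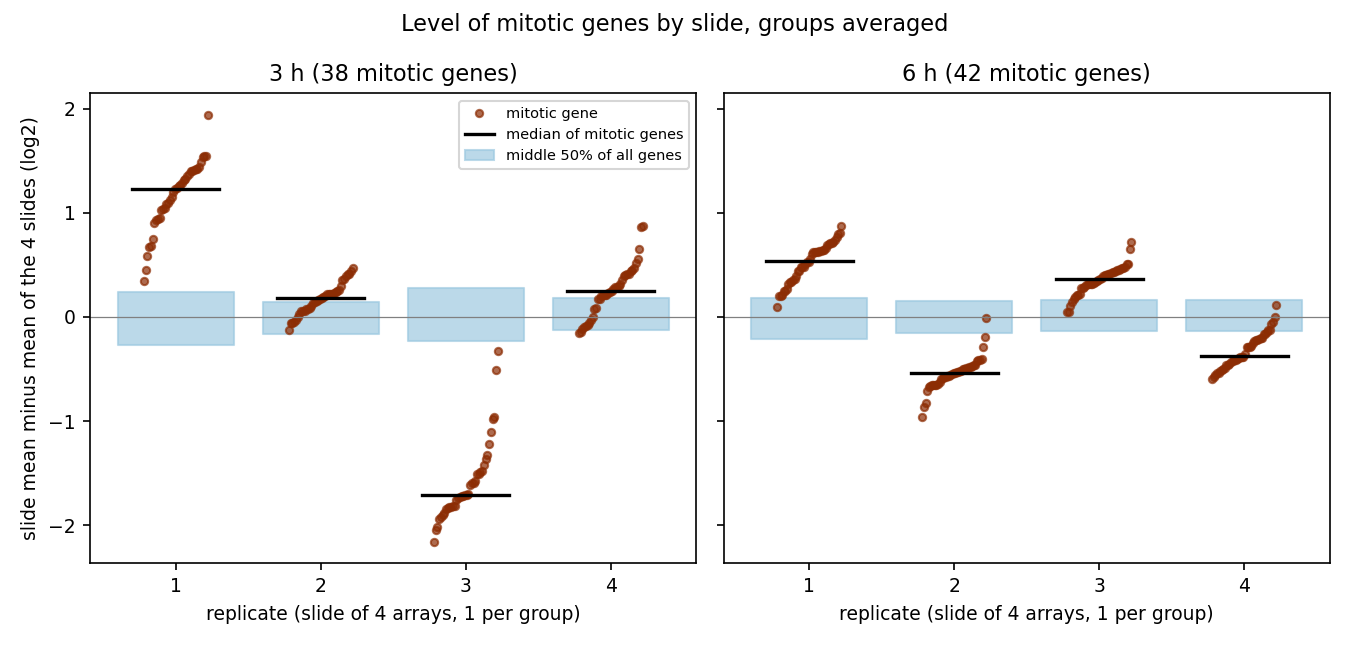
Slide mean of each mitotic gene minus its mean over the 4 slides of a time (log2; y axis) for replicates 1 to 4 (x axis), averaged over the 4 groups of a slide; each point is a gene, black bars are medians and blue boxes hold the middle 50% of all genes tested. At 3 h the medians were 1.23, 0.18, -1.71 and 0.24 and at 6 h 0.54, -0.54, 0.36 and -0.37.

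At 6 h the slides differed less but in the same concerted way. The median member stood at 0.54, -0.54, 0.36 and -0.37 in replicates 1 to 4. The median of the slide ranges per member was 1.14 (2.20-fold) against 0.52 (1.44-fold) over all 16441 genes. Replicate 2 was the lowest for 38 of 42 members (25.0% of all genes), and the highest was replicate 1 for 32 members and replicate 3 for the other 10. The slide difference passed the adjusted threshold for 41 of 42 members, against 74.3% of all genes, the exception being Cdc25b, a phosphatase that activates cyclin-dependent kinase (range 0.23, adjusted p = 0.223). The widest 6 h range, 1.61, was that of Kif4, a chromosome-bound kinesin.

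Of the other mitosis genes, a list of 80 genes from the same pathway, 60 of the 65 tested at 3 h and 63 of the 69 at 6 h differed among slides at the same threshold, with median ranges of 2.24 and 0.91. Slides with the same scan date differed as well. At 3 h replicates 1 and 2 shared a scan date and stood at 1.23 and 0.18. Replicates 3 and 4 shared a later date and stood at -1.71 and 0.24. The labels do not say whether replicates were separate cultures, so p-values in the comparisons below measure the spread between these samples, and culture, labelling and slide cannot be told apart. Treatments were therefore compared within slides. Without that block, no member was called in the Ang II x Control comparison at either time. Of all genes, 0.91% were then called higher and 1.72% lower at 3 h, and 2.10% and 1.93% at 6 h.

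Promoter sequences shared by many members are described here. Whether they relate to the differences among slides was not tested. Promoters (RefSeq, build GRCr8, 250 bases before to 50 bases after the start) were found for 37 of the 42 members, 38 promoters in all, and were missing for Aurkb, Ccna2, Incenp, Kif4 and Tpx2. The cell cycle homology region, searched as TTTGAA or TTTAAA on both strands, occurred in 33 of 38 (86.8%) of them against 28.3% of the 33469 promoters of the table. TTTGAA alone was in 26 and TTTAAA, which is its own reverse complement, in 13. The CCAAT box was in 28 (73.7%, against 37.5%), at least 2 copies of it were in 18 (47.4%, against 11.2%), and both motifs were in 25 (65.8%, against 11.3%). A match of letters is a description of the window and not a bound site. The 4 promoters below are those of Ccnb1, Nek2 and Bub1b, which the study discusses, and of Mad2l1, with the matches in capitals: Ccnb1 (chr2:33655176-33655475, minus strand) has CCAAT boxes beginning 82 and 50 bases before the start and TTTAAA 25 before it, Nek2 (chr13:105936559-105936858, plus) has CCAAT boxes 74 and 41 before it, Mad2l1 (chr4:97236259-97236558, plus) has TTTGAA from base 27 after it, and Bub1b (chr3:126016817-126017116, plus) has TTTGAA 4 before it.
Ccnb1 promoter: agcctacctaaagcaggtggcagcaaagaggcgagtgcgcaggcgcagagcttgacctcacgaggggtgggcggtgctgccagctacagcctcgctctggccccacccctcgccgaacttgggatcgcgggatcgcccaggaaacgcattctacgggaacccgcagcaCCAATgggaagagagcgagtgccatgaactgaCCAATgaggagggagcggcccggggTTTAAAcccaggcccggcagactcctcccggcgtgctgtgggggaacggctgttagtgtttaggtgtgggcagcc
Nek2 promoter: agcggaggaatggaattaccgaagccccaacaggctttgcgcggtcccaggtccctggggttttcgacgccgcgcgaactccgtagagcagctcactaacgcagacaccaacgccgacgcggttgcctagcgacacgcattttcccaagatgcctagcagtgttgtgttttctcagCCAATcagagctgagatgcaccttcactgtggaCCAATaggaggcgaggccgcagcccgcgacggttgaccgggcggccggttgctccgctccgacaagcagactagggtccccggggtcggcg
Mad2l1 promoter: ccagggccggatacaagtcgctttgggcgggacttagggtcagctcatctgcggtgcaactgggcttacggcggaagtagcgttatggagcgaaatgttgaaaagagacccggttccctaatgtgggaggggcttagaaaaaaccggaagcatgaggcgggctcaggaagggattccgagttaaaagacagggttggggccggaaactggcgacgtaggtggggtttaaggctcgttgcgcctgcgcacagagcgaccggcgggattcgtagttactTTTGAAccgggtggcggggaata
Bub1b promoter: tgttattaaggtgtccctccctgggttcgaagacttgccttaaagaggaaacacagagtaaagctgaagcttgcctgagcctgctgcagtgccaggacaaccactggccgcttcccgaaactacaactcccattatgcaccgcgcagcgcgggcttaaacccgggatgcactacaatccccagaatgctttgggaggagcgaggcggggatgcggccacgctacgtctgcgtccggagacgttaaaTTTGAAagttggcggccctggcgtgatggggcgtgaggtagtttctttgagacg

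In Ang II x Control at 3 h, 10 of 38 members were higher and none lower at an unadjusted p below 0.05, the threshold named in the methods, against 5.35% of all genes higher and 7.37% lower. None passed an adjusted p below 0.05, the lowest being 0.332. The median member was 0.21 higher (all genes 0.00), and 36 of 38 members were above 0 (50.4% of all genes). The called genes were the checkpoint genes Mad2l1, Ttk and Bub3, the cyclins Ccnb1 and Ccnb2, the spindle pole kinase Aurka, the passenger kinase Aurkb, the microtubule-depolymerising kinesin Kif2c, the contractile ring protein Anln and the centromeric histone Cenpa. The only Aurkb probe was well above background on 15 of the 16 arrays of 3 h.

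Mad2l1 encodes the checkpoint protein that restrains the anaphase-promoting complex. Its level in replicates 1 to 4 was 10.06, 8.02, 7.31 and 9.12 in Control and 10.09, 9.64, 7.76 and 9.46 with Ang II. Ang II was higher on each slide but mostly on the slide of replicate 2, and the groups overlapped. The log2 fold change was 0.61 ± 0.22 (SE, n = 4 against 4, limma adjusted p = 0.345), and without replicate 2 it was 0.27 and no longer called.

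Ttk, the kinase that starts checkpoint signalling at unattached kinetochores, was at 10.52, 8.94, 7.45 and 9.37 in Control and 10.55, 9.81, 7.64 and 9.92 with Ang II. All pairs were higher by 0.41 ± 0.15 (SE, limma adjusted p = 0.345), with replicate 1 close to equal. Bub3 was at 11.81, 10.81, 11.16 and 11.32 against 11.98, 11.73, 11.21 and 11.64, a rise of 0.36 ± 0.15 (SE, limma adjusted p = 0.374) in which the pair of replicate 2 stood apart. Without replicate 2 the differences fell to 0.26 for Ttk and 0.18 for Bub3 and neither was called. The calls were also lost without replicate 4, at 0.36 and 0.38, and that of Bub3 without replicate 1, at 0.43. The 2 kept probes of Bub3 gave 0.21 and 0.52, and with the brighter probe alone (0.21) Bub3 was not called. Its call was also lost with 75th percentile scaling (0.32) and quantile normalization (0.29).

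Ccnb1 was at 11.53, 10.03, 7.88 and 9.95 in Control and 11.40, 10.82, 8.12 and 10.45 with Ang II. It was higher in 3 of 4 pairs, by 0.35 ± 0.16 (SE, limma adjusted p = 0.381). It was 0.20 without replicate 2, 0.39 without replicate 3 and 0.30 without replicate 4, and called in none of these, nor with 75th percentile scaling or quantile normalization. Nek2, a centrosomal kinase, was at 5.48, 4.69, 2.46 and 5.02 against 5.41, 5.88, 3.33 and 5.54, and did not pass the threshold (0.63 ± 0.33, limma adjusted p = 0.431). It was near the detection limit, with 3 of 4 arrays of Control and of Ang II well above background. Bub1b, the BubR1 checkpoint kinase, was at 9.03, 8.13, 5.97 and 8.23 against 8.94, 8.24, 6.10 and 8.09, a difference of 0.00 ± 0.13 (SE, limma adjusted p = 0.999).

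By role, the calls at 3 h comprised 3 of 7 cyclins and entry kinases (median log2 fold change 0.28), 3 of 5 checkpoint genes (0.36), 1 of 7 kinesins (0.17), 1 of 6 spindle and cytokinesis genes (0.34), 1 of 5 kinetochore genes (0.14) and 1 of 3 passenger genes (0.35). None of the 3 condensin and chromosome structure genes (0.20) and neither of the 2 chromatid separation genes (0.20) was called. The members not called ran from -0.02 for Ncapd2 and Ndc80 to 0.42 for Ect2, an activator of the cytokinesis GTPase RhoA, and 0.63 for Nek2. Between them lay the kinases Plk1 (0.21) and Bub1 (0.09), the cyclin Ccna2 (0.12), the spindle motor Kif11 (0.15), the securin Pttg1 (0.31) and the microtubule nucleation factor Tpx2 (0.36). The shift was uneven among slides: the median member differed by -0.02, 0.45, 0.10 and 0.31 in replicates 1 to 4. The 75th percentile of log2 signal, a measure of array brightness, was higher with Ang II by 0.46, 1.00, 0.19 and 0.42 in the same pairs, so that the largest gain fell on the pair of the largest median and the next largest, in replicate 1, on that of the smallest. Under scaling to that percentile 3 members were called higher instead of 10, and 2.79% of all genes instead of 5.35%, while the median member stayed at 0.18 with 35 of 38 above 0. Without replicate 2 there were 2 (2.71% of all genes), and without replicate 4 there were 3 (2.64%).

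**Figure D2:**
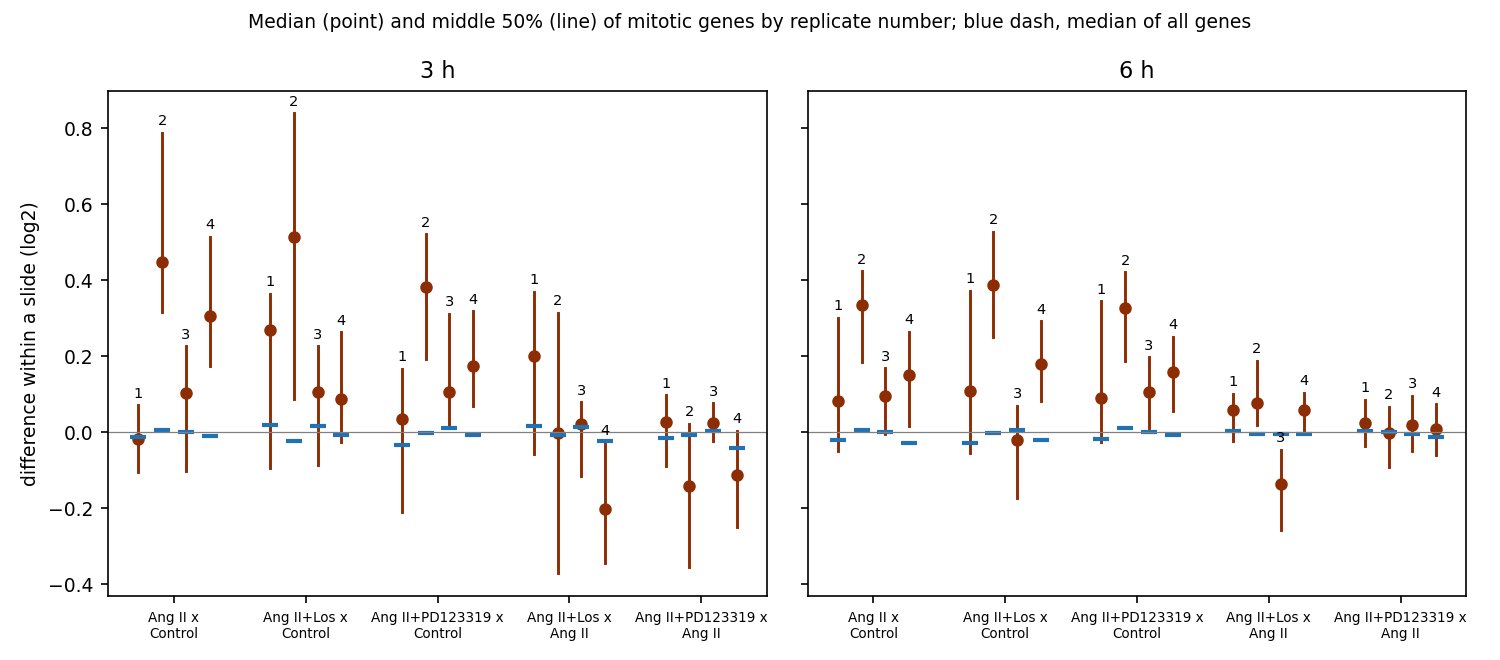
Differences within a slide (log2; y axis) for each comparison (x axis) at 3 h and 6 h; points are medians of the mitotic genes, lines their middle 50%, blue dashes the medians of all genes, and the digits replicate numbers. In Ang II x Control the medians were -0.02, 0.45, 0.10 and 0.31 at 3 h and 0.08, 0.33, 0.10 and 0.15 at 6 h.

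At 6 h, Ang II x Control called 17 of 42 members higher and none lower, against 10.6% of all genes higher and 10.9% lower. None passed an adjusted p below 0.05, in the members (lowest 0.0803) or in all genes (lowest 0.0575). The median member was 0.19 higher (all genes -0.01), 39 of 42 were above 0 (48.7% of all genes), and 16 were higher in all 4 pairs (2006 of all 16441 genes). The called genes were the condensin subunits Smc2 and Ncapd2 and Top2a, the kinesins Kif4, Kif2c, Kif23 and Kif18a, the checkpoint genes Bub1, Mad2l1 and Bub1b, the outer kinetochore genes Nuf2 and Ndc80, the spindle proteins Tpx2 and Prc1, and Aurkb, Nek2 and Ccnb1. The 2 probes of Bub1 differed, at 0.08 and 0.41 (limma unadjusted p = 0.221 and 0.0170). The second probe was not kept at 3 h, where the first alone gave 0.09, so the Bub1 values of the 2 times rest on different probes.

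Aurkb had the lowest p of the list. Its level was 9.36, 7.97, 9.34 and 8.38 in Control and 9.92, 8.55, 9.51 and 8.72 with Ang II, higher on every slide while the groups overlapped. The log2 fold change was 0.41 ± 0.09 (SE, limma adjusted p = 0.0803), and its call held when any replicate was left out.

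Smc2, the ATPase core of condensin, was at 4.84, 4.01, 5.36 and 4.65 in Control and 5.36, 4.13, 5.74 and 5.30 with Ang II (0.41 ± 0.14, limma adjusted p = 0.137). The pair of replicate 2 moved least, and the call was lost without replicate 1 (0.38) or replicate 4 (0.33). Nek2 was at 6.25, 5.46, 6.45 and 5.74 against 6.74, 5.85, 6.62 and 6.08 (0.35 ± 0.11, limma adjusted p = 0.127). All 4 pairs were higher, and the call held with any replicate left out.

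Ccnb1 was at 11.52, 10.28, 11.48 and 10.55 in Control and 11.82, 10.63, 11.59 and 10.69 with Ang II (0.23 ± 0.08, limma adjusted p = 0.161). Bub1b was at 9.53, 8.38, 9.64 and 8.65 against 9.75, 8.64, 9.75 and 8.77 (0.18 ± 0.07, limma adjusted p = 0.207). Both were higher in each pair, most in replicates 1 and 2, and the groups overlapped. The call of Ccnb1 was lost without replicate 1 (0.20), and that of Bub1b without replicate 1 (0.16), 2 (0.15) or 4 (0.19). The partner kinase of Ccnb1, Cdk1, was present under its former name Cdc2 and was not called: its log2 fold change was 0.13 ± 0.10 at 3 h (SE, limma adjusted p = 0.573) and 0.09 ± 0.08 at 6 h (adjusted p = 0.568), beside slide ranges of 2.99 and 1.15.

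**Figure D3:**
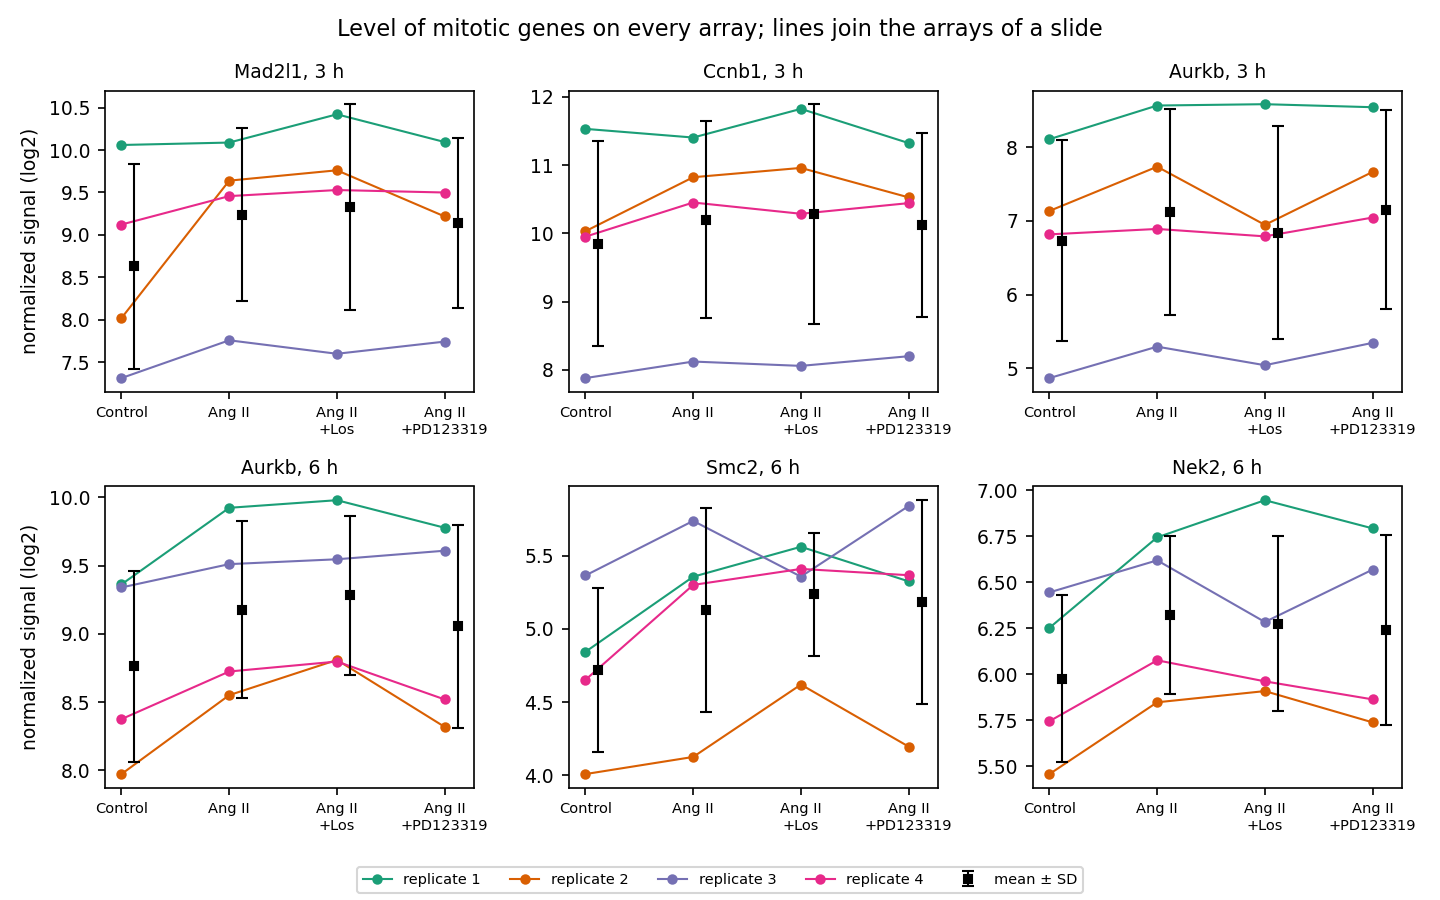
Normalized log2 signal (y axis) of Mad2l1, Ccnb1 and Aurkb at 3 h and of Aurkb, Smc2 and Nek2 at 6 h in the 4 groups (x axis); each coloured line joins the arrays of a slide, and squares with bars are means ± SD (n = 4). Within each group the values span a wide range, as for Mad2l1 at 3 h, whose Control values ran from 7.31 to 10.06, and some lines cross, as between replicates 2 and 4 of Mad2l1.

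By role, 3 of 4 condensin and chromosome structure genes were called at 6 h (median 0.28), 4 of 8 kinesins (0.20), 3 of 5 checkpoint genes (0.18), 2 of 8 cyclins and entry kinases (0.15), 2 of 6 kinetochore genes (0.16), 2 of 6 spindle and cytokinesis genes (0.11) and 1 of 3 passenger genes (0.22). Neither chromatid separation gene, Pttg1 or the separase Espl1, was called (0.07). The members not called ran from -0.03 for Anln to 0.28 for Spc25, a partner of Ndc80 and Nuf2. Among them were Plk1 (0.01), Aurka (0.08), Kif11 (0.06), Cenpf (0.07), Birc5 (0.09), Smc4, the partner of Smc2 in condensin (0.12), Ccnb2 (0.15), Ttk (0.18) and the kinetochore kinesin Cenpe (0.23). By slide the median member differed by 0.08, 0.33, 0.10 and 0.15. The brightness of the arrays differed by -0.22, 0.08, 0.21 and 0.05 in these pairs. The count was 6 without replicate 4 (5.99% of all genes), 7 without replicate 2 (6.29%) and 20 without replicate 3 (11.1%).

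Across both times, 23 members were called at 3 h or 6 h and 4 at both, namely Ccnb1, Mad2l1, Kif2c and Aurkb. Among the 38 members tested at both times this is 40.0% of the 10 called at 3 h and 26.7% of the 15 called at 6 h. Over all 13615 genes tested at both, the genes called higher at both were 31.6% and 16.3% of those called higher at each time. The arrays of the 2 times were separate, and 33 of the 38 members were above 0 at both, against 31.9% of all genes. When the Ang II difference itself was compared between times, 2 of 38 members had an unadjusted p below 0.05, against 7.18% of all genes, and none passed adjustment (lowest adjusted p = 0.675). These were Anln, with 6 h minus 3 h of -0.39 ± 0.17 (SE, limma adjusted p = 0.675), and Bub3, with -0.36 ± 0.16 (limma adjusted p = 0.675). Both were called only at 3 h.

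**Figure D4:**
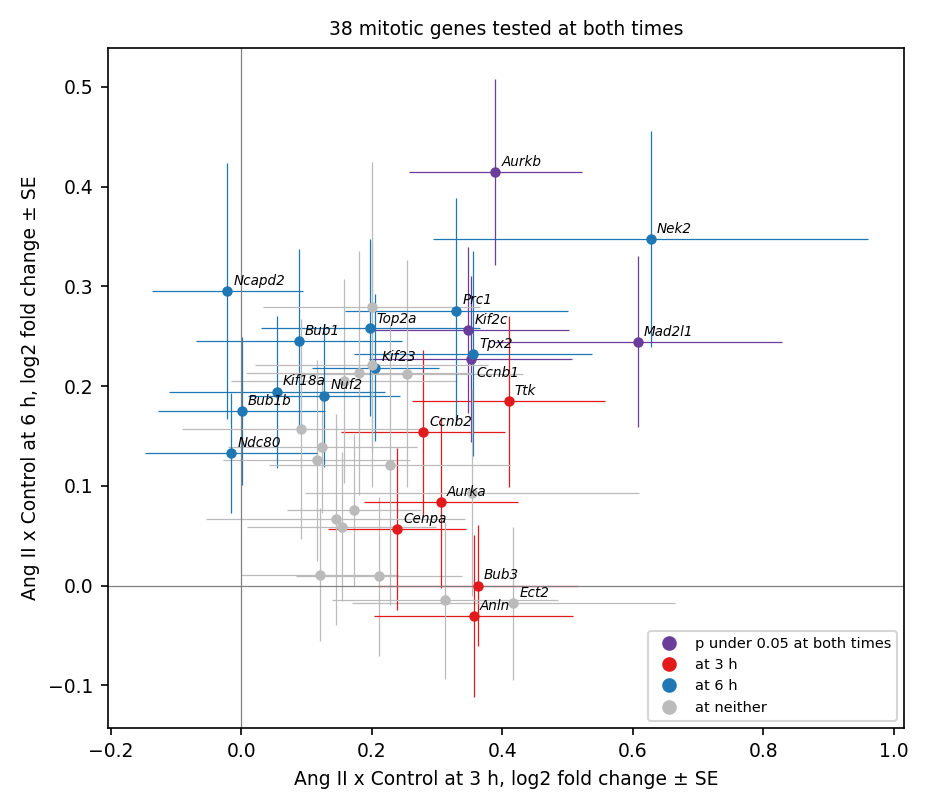
Log2 fold change ± SE of Ang II x Control at 3 h (x axis) and 6 h (y axis) for the 38 mitotic genes tested at both times; colours give where the unadjusted p was below 0.05. Most points, 33 of 38, lie above 0 on both axes, and Anln and Bub3 lie near 0 at 6 h.

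Few members were called between Ang II+Los and Ang II alone. In the Losartan comparison at 3 h, no member was higher and 3 were lower, against 4.89% and 6.03% of all genes, and the median was 0.01. The lower genes were Top2a, Cdc25b and Prc1, a microtubule crosslinker of the spindle midzone. The share of members called was near that of all genes, and none passed adjustment.

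Cdc25b was at 9.13, 9.13, 8.23 and 8.98 with Ang II and 8.76, 7.99, 8.15 and 8.71 with Losartan added. It was lower in all pairs, most of all in replicate 2 (-0.46 ± 0.17, limma adjusted p = 0.427), and its 2 probes gave -0.24 and -0.68. Top2a was at 9.25, 8.76, 6.37 and 9.08 against 8.75, 7.67, 6.45 and 8.69 (-0.48 ± 0.17, limma adjusted p = 0.427), and Prc1 at 9.43, 8.29, 6.33 and 8.77 against 8.90, 7.32, 6.41 and 8.41 (-0.44 ± 0.17, limma adjusted p = 0.427). These were lower in 3 of 4 pairs, and no member was called when replicate 2 was left out (1.06% of all genes higher and 0.907% lower).

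At 6 h, the Losartan comparison called none of 42 members in either direction, against 0.815% of all genes higher and 1.18% lower, and the lowest p was 0.160 (Mad2l1). Members ranged from -0.09 to 0.13 around a median of 0.01, and their 95% intervals, with a median half-width of 0.19, reached from -0.32 to 0.40. In the replicate 3 pair the median member was -0.13, while it was 0.06, 0.08 and 0.06 in the others.

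PD123319 gave no called member at either time. At 3 h, the PD123319 comparison had 0 of 38 members higher or lower, against 2.1% and 0.888% of all genes, with a median of -0.05, a range from -0.20 to 0.19 and a lowest p of 0.211. The number above 0 was 10 of 38, beside 44.7% of all genes. At 6 h it had 0 of 42, against 3.88% and 2.49% of all genes, with a median of 0.01 and a range from -0.12 to 0.15. The lowest p there was 0.0811, for Kif20a, a kinesin of cytokinesis. The 95% intervals at 3 h had a median half-width of 0.34, so differences of the size seen in Ang II x Control were not detectable for most members.

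Both antagonist groups were also set against Control. These comparisons share the Control arrays with Ang II x Control, so they are not separate evidence. In Ang II+Los x Control at 3 h, 10 members were higher and 1 lower, against 10.4% and 11.3% of all genes, with a median of 0.24. Mad2l1, at 10.42, 9.76, 7.60 and 9.53 with Losartan, was 0.70 ± 0.22 higher (SE, limma adjusted p = 0.178). Ccnb1, at 11.82, 10.96, 8.06 and 10.29, was 0.43 ± 0.16 higher (limma adjusted p = 0.187). Both were above Control on all slides.

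Birc5, the passenger protein survivin, was at 11.81, 9.53, 8.71 and 11.41 in Control and 12.08, 11.51, 8.74 and 11.49 with Losartan and Ang II (0.59 ± 0.26, limma adjusted p = 0.218). Nearly all of that difference came from replicate 2, without which it was 0.12 and not called. Ncapd2, a condensin subunit, was the lower gene, at 9.32, 8.62, 7.78 and 8.81 in Control and 9.12, 8.21, 7.52 and 8.63 (-0.26 ± 0.12, limma adjusted p = 0.221). Without replicate 2 the number of members called higher fell to 1 (3.83% of all genes) and the median to 0.13.

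At 6 h, Ang II+Los x Control called 16 members higher and none lower, against 10.6% and 11.3% of all genes, with a median of 0.18. Aurkb was at 9.98, 8.81, 9.55 and 8.80 with Losartan and was 0.52 ± 0.09 higher (SE, limma adjusted p = 0.0368), the only member in any treatment comparison with an adjusted p below 0.05, which 1.36% of all genes reached in that comparison. No member passed adjustment there without a filter, with the comparison's 8 arrays alone, under a paired test, or without replicate 1, 2 or 4. Without replicate 3, 6 members did, and 1 or 2 did in each other alternative that kept the replicate block. Mad2l1 was at 10.75, 9.49, 10.59 and 9.75 in Control and 10.94, 10.17, 10.74 and 10.22 (0.37 ± 0.09, limma adjusted p = 0.0554). Kif4 was at 5.42, 3.54, 5.47 and 4.32 in Control and 5.46, 4.28, 5.52 and 4.94 (0.37 ± 0.14, limma adjusted p = 0.160). For Kif4 the rise lay in replicates 2 and 4, the slides on which its Control level was low. Without replicate 2 the count of members called higher was 5 (5.49% of all genes) and the median 0.095.

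In Ang II+PD123319 x Control at 3 h, 4 members were higher and none lower, against 2.74% and 4.86% of all genes. They were Mad2l1 (0.51 ± 0.22, limma adjusted p = 0.634), Aurkb (0.42 ± 0.13, limma adjusted p = 0.512), Aurka and Kif23. Mad2l1 was at 10.09, 9.22, 7.74 and 9.5 with PD123319 and above Control on all slides.

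Aurka was at 11.05, 9.67, 8.11 and 9.91 in Control and 11.24, 10.20, 8.25 and 10.34 (0.32 ± 0.12, limma adjusted p = 0.604). Kif23, the motor of the centralspindlin complex, was at 11.06, 9.65, 7.90 and 9.81 and 11.17, 10.05, 8.26 and 10.11 (0.29 ± 0.10, limma adjusted p = 0.544). Both were higher in each pair, by less than the distance between any neighbouring slides except those of replicates 2 and 4.

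At 6 h, Ang II+PD123319 x Control called 17 members higher and none lower, against 10.9% and 12.1% of all genes, with a median of 0.18 and no adjusted p below 0.05, which 1.38% of all genes reached. Smc2, at 5.32, 4.20, 5.84 and 5.37 with PD123319, was 0.46 ± 0.14 higher (SE, limma adjusted p = 0.0891). Kif2c was at 8.61, 7.42, 8.72 and 7.57 in Control and 9.12, 7.80, 8.85 and 7.96 (0.35 ± 0.08, limma adjusted p = 0.0542). Ncapd2 was at 9.41, 8.97, 9.81 and 8.99 in Control and 9.92, 9.30, 9.84 and 9.43 (0.33 ± 0.13, limma adjusted p = 0.162). All 3 were higher in all 4 pairs, and Ncapd2 least in replicate 3. The count was 8 without replicate 4 (5.70% of all genes) and 9 without replicate 2 (6.65%).

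**Figure D5:**
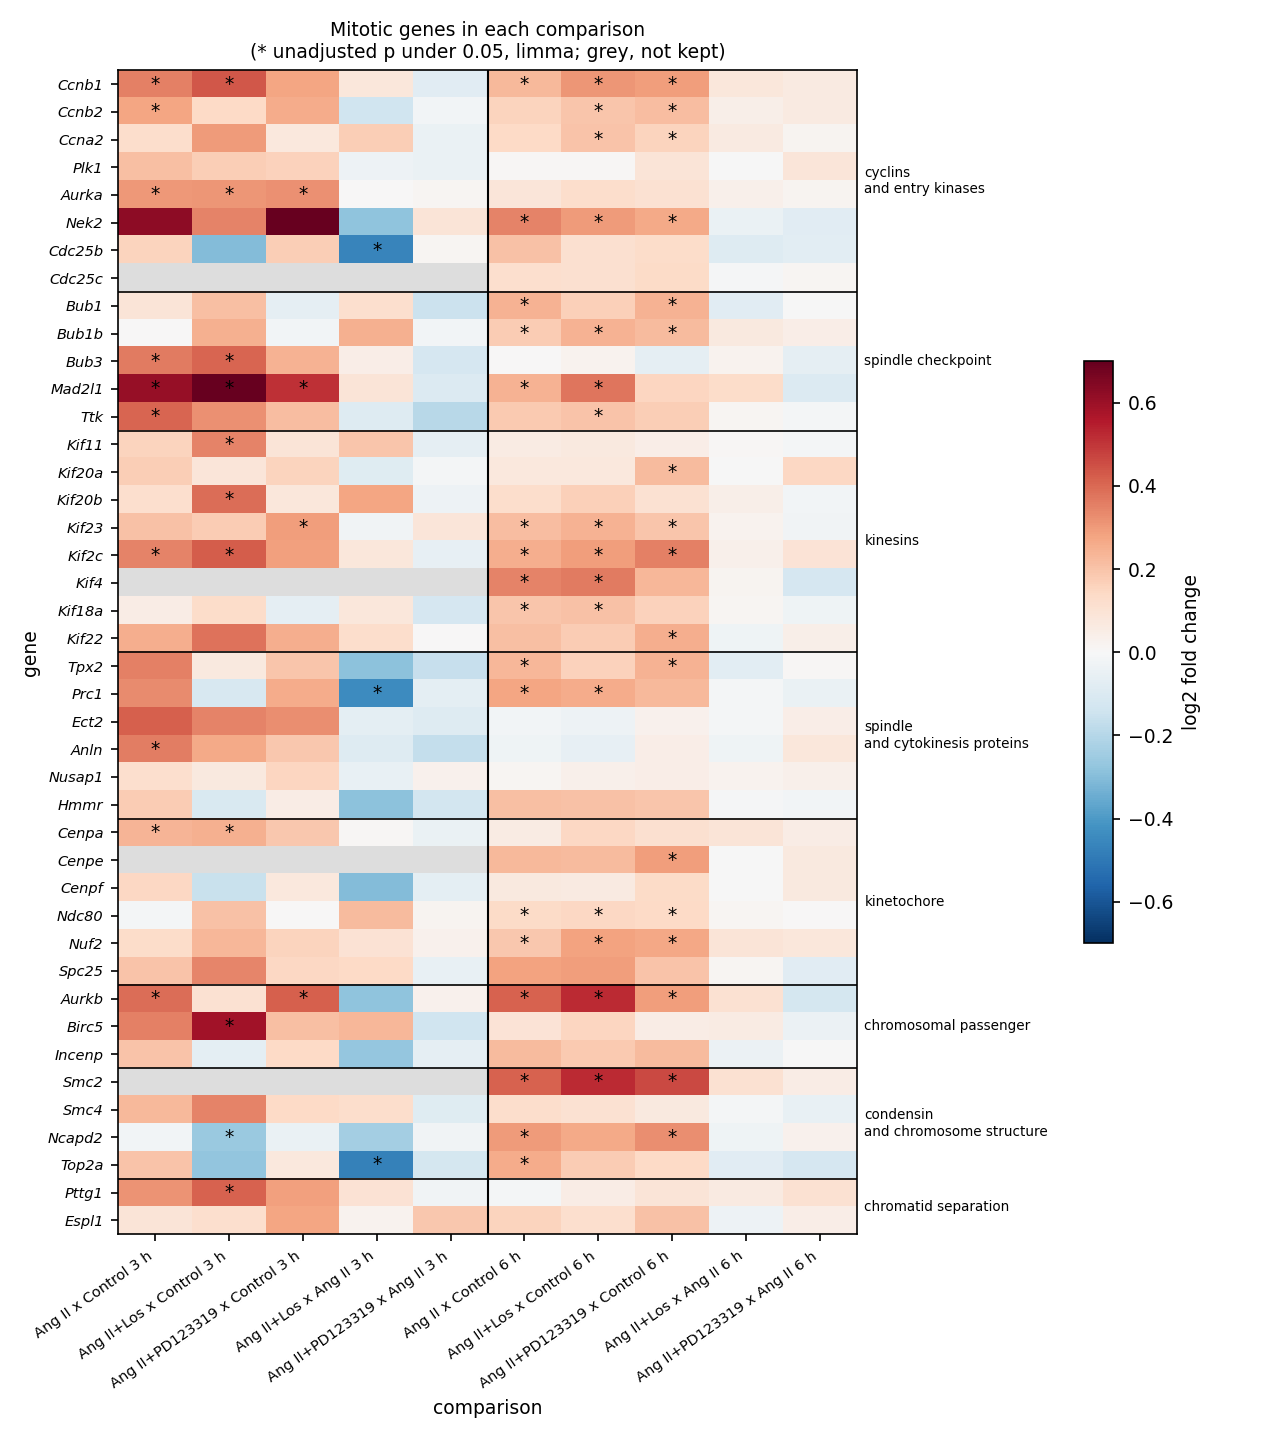
Log2 fold change of each mitotic gene (rows, by role) in the 10 comparisons (columns, 3 h left and 6 h right); red is higher and blue lower in the first-named group, asterisks mark a limma unadjusted p below 0.05, and grey marks genes not kept. The columns against Control are mostly red, with 10 asterisks (3 h) and 17 (6 h) for Ang II x Control, while those of the PD123319 comparison hold none.

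On 6 of the 8 slides, Control had the lowest median of the members among the 4 groups. Control always lay at the first position of its slide and each treatment at its own position, so position and treatment cannot be told apart. Among the other mitosis genes, 10 were higher and 1 lower of 65 in Ang II x Control at 3 h (median 0.18), and 14 were higher and 4 lower of 69 at 6 h (median 0.11). The lower genes were Nek9, a kinase upstream of Nek6 and Nek7, at 3 h, and Cenpk, Dsn1, Spc24 and Mad2l2 at 6 h.

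The regulators of this programme moved as follows. Foxm1 was called higher at 3 h, by 0.28 ± 0.10 (SE, limma adjusted p = 0.341), and not at 6 h (0.07 ± 0.09, limma adjusted p = 0.710). Mybl2, the B-Myb factor that works with Foxm1 on G2/M genes, was called at neither time (0.28 ± 0.14 at 3 h and 0.21 ± 0.14 at 6 h, limma adjusted p = 0.416 and adjusted p = 0.413). Cdc20, the activator of the anaphase-promoting complex that Mad2l1 restrains, was not called at 3 h (0.07 ± 0.12, limma adjusted p = 0.832) and was called higher at 6 h (0.17 ± 0.07, limma adjusted p = 0.170).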

How the data were processed

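Total RNA of C6 cells was labelled with Cy3 and hybridised to single-colour rat arrays, 32 in all, on 8 slides. The authors extracted spot intensities with Agilent Feature Extraction (9.5.3.1 per the file headers), which subtracts background and corrects spatial trends; the deposited value table holds the same processed signals as log2 values, with 38.2% left blank. The 3 h files were extracted with protocol GE1-v1_95_Feb07 and the 6 h files with GE1-v5_95_Feb07.

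Here, control spots and outlier flags were left out, processed signals were taken as log2, normalized by cyclic loess (span 0.7, 3 iterations) among the 16 arrays of a time, and averaged over the kept probes of a gene. At 3 h, a spot whose signal was not positive and significant took the error of its signal instead. This replaced between 9758 and 14151 of the 42877 spots of each 3 h array before normalization. None was replaced here at 6 h, because those files already carried the extraction software's own surrogate values for dim spots. A probe was kept when at least 1 group had it well above background throughout (4 of 4 arrays). Genes were tested with limma 3.58.1 in R 4.3.3 on all arrays of a time with the slide as a block, and called at an unadjusted p under 0.05, the threshold of the study; adjusted p-values are Benjamini-Hochberg over all genes. The replicate numbers pair the samples, since each slide holds 1 array of each group. Deviations from group means correlated with a median of 0.67 at 3 h (lowest 0.14) and 0.68 at 6 h (lowest 0.55) for the same number. For other numbers the medians were -0.12 and -0.17. Taking deviations from group means itself pushes these last values below those of unrelated arrays, so they are no neutral baseline. Differences among slides were tested with limma's F test; that test was added after the values were seen. The interaction of treatment and time used all arrays.

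The members, the gene lists and the tests were chosen with earlier results of these data known. Values in every sample are given for Nek2, Ccnb1 and Bub1b in Ang II x Control and, per comparison, for up to 3 called members of largest change in each direction that moved the same way in all 4 pairs and were well above background on all 16 arrays; Top2a, Prc1 and Aurkb at 3 h were added after their values were seen. The number of arrays limits the precision. On simulated arrays with the spread of the real ones, a change of 0.25 in Ang II x Control was called in 41.8% of altered genes at 3 h (13398 genes simulated) and 62.7% at 6 h (16375 genes), and a change of 0.5 in 71.6% and 86.6%. Alternatives covered normalization, background, filter, probe choice, block, test, samples in the fit, the deposited values and each replicate left out. Motifs and figures used Python 3.11.15.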

Additional observations from a re-analysis of the deposited data

Results flagged for a closer look

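The level of Cdc25b with Ang II at 3 h had an outlying replicate: replicate 3, at 8.23, lay apart from 8.98, 9.13 and 9.13 by a gap of 82.9% of the group's range. Averaged over the 4 groups, Cdc25b stood at -0.51 on that slide, which was the lowest for 38 of 38 members at 3 h. The median member in the Losartan comparison at 6 h had an outlying pair, replicate 3 at -0.13, whose gap to the others was 90.2% of the range. These were 2 of 55 groups of 4 examined, and about 1 in 20 is marked by chance. The Ang II difference changed between times, at an unadjusted p below 0.05 for the interaction (limma), for Anln (6 h minus 3 h, -0.387) and Bub3 (-0.362); neither passed adjustment over all genes. Anln was called 0.36 higher at 3 h and stood at -0.03 at 6 h, and Bub3 at 0.36 and 0.00.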

How the results depend on the processing

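The treatment calls, of which only Aurkb in Ang II+Los x Control at 6 h passed adjustment, rested on the replicate block: without the replicate block, 0 members were called higher against Control in any treatment group at 3 h or 6 h, 0 lower in the Losartan comparison or Ang II+Los x Control at 3 h, and 0 in the comparison of times. Over all genes, the Ang II x Control calls without the replicate block were 124 higher and 235 lower at 3 h and 345 and 318 at 6 h, against 729 and 1004 and 1748 and 1784 with it. A paired test per gene is the kind the series record names (the paper's methods do not say whether their test was paired). It called 1 member higher in Ang II x Control at 3 h (3.77% of all genes). In Ang II+Los x Control it called 1 higher at each time (2.41% and 3.78%), and in Ang II+PD123319 x Control at 6 h 9 higher (3.74%). In the Losartan comparison it called 1 lower at 3 h (1.41%) and 2 higher at 6 h (1.89%). In the PD123319 comparison at 6 h it called 4 higher and 1 lower (3.86% and 4.83%). With 75th percentile scaling, Ang II x Control at 3 h had 3 members higher (2.79% of all genes) and Ang II+Los x Control at 3 h 0 lower (14.0%). The comparison of times had 0. With quantile normalization, Ang II x Control at 3 h had 5 higher (4.26%) and the comparison of times 1. The 75th percentile scaling turned the all-gene calls of Ang II x Control at 3 h to 380 higher and 1340 lower, and at 6 h to 8.39% higher and 13.0% lower. With normexp background, the Losartan comparison at 3 h had 2 higher (5.77% of all genes) and Ang II+Los x Control at 3 h 0 lower (10.4%). The PD123319 comparison at 6 h had 1 higher (4.74%) with a median of -0.011. The slide ranges of the median member were then 2.30 at 3 h and 0.92 at 6 h. Slide ranges in this section lie between the highest and lowest slide medians, unlike the medians per member of 2.92 and 1.14 above. In the main fit the slide medians ran from -1.71 to 1.23 at 3 h and from -0.54 to 0.54 at 6 h. Without a filter, 5 members were lower in the Losartan comparison at 3 h (3.86% of all genes). With the brightest probe, 2 were lower in Ang II+Los x Control at 3 h (11.4%) and 1 differed between times. With the 8 arrays of a comparison alone, Ang II x Control at 3 h had 5 higher (5.22%) and the Losartan comparison at 3 h 0 lower (1.57%). Ang II+Los x Control then had 2 higher and 0 lower at 3 h (3.85% and 3.33%) and 5 higher at 6 h (5.55%). The PD123319 comparison had 1 higher at 6 h (5.05%), and Ang II+PD123319 x Control 9 and 7 higher at 3 h and 6 h (5.00% and 5.04%). With the deposited values, Ang II+Los x Control at 3 h had 0 lower (11.6%) and Ang II+PD123319 x Control at 3 h 2 higher (2.95%). The 3 h slide range with those values was 2.86. Control arrays alone gave a 6 h slide range of 1.26. These slide alternatives were chosen after seeing the data.

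With each replicate left out, members called higher in Ang II x Control ranged from 2 to 9 at 3 h and 6 to 20 at 6 h. The share of all genes called higher ranged from 2.64% to 5.67% and from 5.99% to 11.1%. In Ang II+Los x Control members ranged from 1 to 12 and 5 to 23 (all genes 3.83% to 11.5% and 5.49% to 11.5%). In Ang II+PD123319 x Control they ranged from 2 to 5 and 8 to 18 (all genes 1.86% to 2.93% and 5.70% to 12.9%). Lower members in the Losartan comparison at 3 h ranged from 0 to 3 (all genes 0.907% to 7.89%) and in Ang II+Los x Control at 3 h from 0 to 1 (3.69% to 13.3%). Higher members in the Losartan comparison at 6 h ranged from 0 to 1 (0.664% to 2.65%), and members differing between times from 0 to 5. The slide range went from 1.05 (without replicate 3) to 2.94 at 3 h and from 0.90 to 1.08 at 6 h. The median of Ang II x Control stayed between 0.14 and 0.28 at 3 h and 0.13 and 0.20 at 6 h. Similar counts did not always mean the same genes. In Ang II x Control at 3 h, 8 of the 9 called without replicate 1 were among the 10 of the main fit. Without replicate 3 it was 5 of 9, and with normexp background 4 of 8. At 6 h, 14 of the 20 called without replicate 3 were among the main 17. Bub1b in Ang II x Control at 3 h, 0.00, turned to -0.031 with 75th percentile scaling and -0.016 with quantile normalization, and ranged from -0.042 (without replicate 3) to 0.046 (without replicate 4) with a replicate left out, also below 0 without replicate 2. Of the alternatives for single genes, 241 kept direction and call, 95 lost the call, 2 gained it and 4 turned sign; the cause was not tested.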
